A study of Mus musculus with 12 samples.

Results

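The 43 cell cycle genes described here were taken by symbol from the 32285 genes of the deposited matrices. They were chosen with earlier results of these data known. They comprise 25 mitotic genes, 11 genes of S phase and DNA replication, 4 chromatin and tubulin genes and 3 replication-dependent histone genes, and all were listed in every matrix. The study sequenced single synovial cells of ankle and wrist joints in 6 wells of 3' chemistry, each carrying 3 antibody hashtags. The mice were 8 to 10 weeks old, of strain R5 x R26tdTomato and genotype Il5 wt/Cre; R26 tdTom/tdTom in every group, controls included: Cre made from the Il5 locus marks a cell and its descendants with tdTomato. They were untreated (healthy), had serum transfer arthritis (STA), a joint inflammation brought on by transferred serum, or had STA and Il23mc. Innate lymphoid cells (ILCs) were sorted as tdTomato+ CD45+ cells without T cell receptor, CD11b or GR-1, and fibroblasts as all viable CD45- GR-1- cells.

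In experiment 1, healthy, STA and STA + Il23mc ILCs each filled 1 well, with 1 mouse per hashtag. For those ILCs a difference between conditions cannot be told apart from one between wells. The fibroblasts of experiment 1 shared 1 well with 1 hashtag per condition. Experiment 2 had an ILC well and a fibroblast well, each with a healthy hashtag and 2 STA hashtags that the feature tables call mild and severe. The labels also state that a well held cells of 4 pooled animals, which disagrees with the 3 hashed mice of those ILC wells. They do not say how many animals stood behind a hashtag that names a condition. The replicate was therefore the hashtag, and p-values measure the spread between hashtags, which may be technical outside the hashed mice.

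Cells that commit to division copy their DNA in S phase and then separate the copies in mitosis. E2F factors switch on replication genes such as the MCM helicase subunits once the pocket proteins are released by cyclin D with CDK4 and CDK6. The DREAM complex holds the mitotic genes off in resting cells through a short element called CHR. The MuvB complex, with B-MYB and FOXM1, later switches them on. Cyclin B and CDK1 drive entry into mitosis, the kinetochore and spindle genes (CENP, BUB and KIF families, AURKB, BIRC5) handle the chromosomes, and CDC20 and UBE2C help the anaphase-promoting complex end it. In resting connective tissue and in tissue-resident lymphoid cells few cells cycle at a time.

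Promoter sequences were matched for 37 of the 43 members in the RefSeq table (GRCm38.p6, the mm10 build of the files), giving 38 promoters. In the 250 bases before the start, on either strand, the CHR word TTTGAA stood in 28.9% of the members' promoters and in 16.0% of all 32851 promoters. The CCAAT box, CCAAT, stood in 86.8% and 33.9%, and any of the E2F words TTCCCGC or TTCGCGC or TTGCCGC or TTGGCGC in 28.9% and 7.89%. Among replication members the E2F words stood in 54.5% of promoters and the CHR word in 9.09%, against 18.2% and 31.8% among mitotic members. A match describes letters only and was not tied to binding. Of the mitotic members higher in arthritic fibroblasts, the 3 printed below were the only ones with a CHR word in a matched promoter. Cdca3, Kif23, Cenpe, Birc5, Bub1, Bub1b and Plk1 held 0 in the 250 bases. Mcm6 held 4 E2F words, the most of any member, while Pclaf, Pcna, Mcm2, Mcm3 and Tyms held 0. Below are the 200 bases before the start of 3 mitotic members that were higher in arthritic fibroblasts and, for contrast, of a replication member, each read 5' to 3' on the gene's strand (minus) with these words in capitals. They lie at chr4:118437344-118437543 (Cdc20), chr9:70421555-70421754 (Ccnb2), chr10:69352913-69353112 (Cdk1) and chr1:128359706-128359905 (Mcm6).
Cdc20: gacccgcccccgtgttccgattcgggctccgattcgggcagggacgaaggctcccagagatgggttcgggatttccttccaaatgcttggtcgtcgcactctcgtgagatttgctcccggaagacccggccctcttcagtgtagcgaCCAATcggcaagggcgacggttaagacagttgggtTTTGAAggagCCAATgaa
Ccnb2: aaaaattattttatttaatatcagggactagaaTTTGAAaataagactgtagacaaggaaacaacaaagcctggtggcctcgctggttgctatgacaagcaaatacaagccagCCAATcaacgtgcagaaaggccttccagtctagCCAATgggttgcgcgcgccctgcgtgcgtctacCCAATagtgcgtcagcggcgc
Cdk1: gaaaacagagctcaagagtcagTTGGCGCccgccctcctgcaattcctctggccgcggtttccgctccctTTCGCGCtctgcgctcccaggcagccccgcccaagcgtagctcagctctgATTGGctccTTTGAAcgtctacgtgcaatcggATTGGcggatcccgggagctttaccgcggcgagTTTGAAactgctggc
Mcm6: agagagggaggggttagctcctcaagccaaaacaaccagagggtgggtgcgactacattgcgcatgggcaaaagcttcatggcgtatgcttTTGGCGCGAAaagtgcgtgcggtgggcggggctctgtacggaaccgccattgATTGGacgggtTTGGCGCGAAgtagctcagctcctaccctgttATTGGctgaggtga
In this window Cdc20 and Ccnb2 held 1 CHR word each and no E2F word, Cdk1 held 2 of each, and the runs of E2F words in Mcm6 overlap one another on the 2 strands.

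The 6 wells held 26773 cell barcodes, of which 74 sequences recurred in more than 1 well (9 among annotated cells). The authors' table names 8042 cells of 5 wells, of which 8039 were found in the matrices, and has no ILC of an STA mouse without Il23mc in either experiment. ILC classes of those cells were transferred from annotated cells. When annotated wells were held out in turn, the transfer returned the authors' class for 71.05% to 99.12% of ILC2 and for 13.5% to 92.98% of ILC3, so ILC3 of STA mice are given as values only. Summed per hashtag, ILC2 gave 795046 to 4638015 unique molecular identifiers (UMIs, counted molecules) from 168 to 799 cells, ILC3 118674 to 2727118 from 28 to 463 cells, and the 5 fibroblast classes 3103104 to 17064647 from 268 to 953 cells. Levels are UMIs per 1000000 UMIs of the hashtag's sum (CPM), and are compared only within a gene. Fewer cells of a kind and less RNA per cell cannot be told apart in such sums.

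Fibroblast sums carried 30656 to 56656 CPM of 6 fibroblast markers and 1.21 to 6.80 CPM of 4 leukocyte markers. ILC2 sums carried 5700 to 8170 CPM of 8 ILC2 markers and 567 to 3290 CPM of 6 ILC3 markers. The class that the authors call ILC3 did not carry its own markers in every well: it held 403 to 587 CPM of them in the 3 healthy mice, where ILC2 held 614 to 753, and 2351 to 7986 CPM in the 3 Il23mc mice. The name is kept here as the authors' label.

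A cell was counted as mitotic when it held UMIs of at least 3 of the 25 mitotic members, and as a replication cell with at least 3 of the 11 replication members, after every cell had been thinned at random to 2000 UMIs. Shares are scores over the members and carry no test. Intervals are exact 95% binomial intervals (Clopper-Pearson), which cover counting error only. Chondrocytes of the fibroblast wells, as annotated, held 0 mitotic cells in 95 (which allows up to 3.16%), and serve as the level in another class of the same wells.

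Mitotic cells were several times as frequent among arthritic as among healthy fibroblasts in both experiments. In experiment 1 they were 2 of 403 healthy fibroblasts (0.496%, interval 0.0602 to 1.78) and 69 of 935 STA fibroblasts (7.38%, 5.79 to 9.25). In experiment 2 they were 3 of 265 healthy (1.13%, 0.234 to 3.27), 16 of 280 mild (5.71%, 3.30 to 9.11) and 25 of 467 severe STA fibroblasts (5.35%, 3.49 to 7.80). The 3 STA hashtags (mean 6.15%, SD 1.08) all lay above both healthy hashtags (mean 0.814%, SD 0.450). Thinning left out 3 to 8 cells per hashtag, and median depth was 7558 and 10819 UMIs per cell in the healthy hashtags and 14559 to 17021 in the STA hashtags. Unthinned, the shares were 13.8% (SD 3.02, n = 3) and 1.85% (SD 0.543, n = 2). Replication cells overlapped between the groups: 1.74% and 1.51% of healthy fibroblasts, and 3.32%, 2.5% and 1.71% of STA fibroblasts. The severe hashtag lay between the 2 healthy ones. Unthinned, replication cells did not overlap, at 6.13% and 11.9% of healthy and 29.3%, 29.7% and 27.4% of STA fibroblasts, which were the deeper cells.

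**Figure D1:**
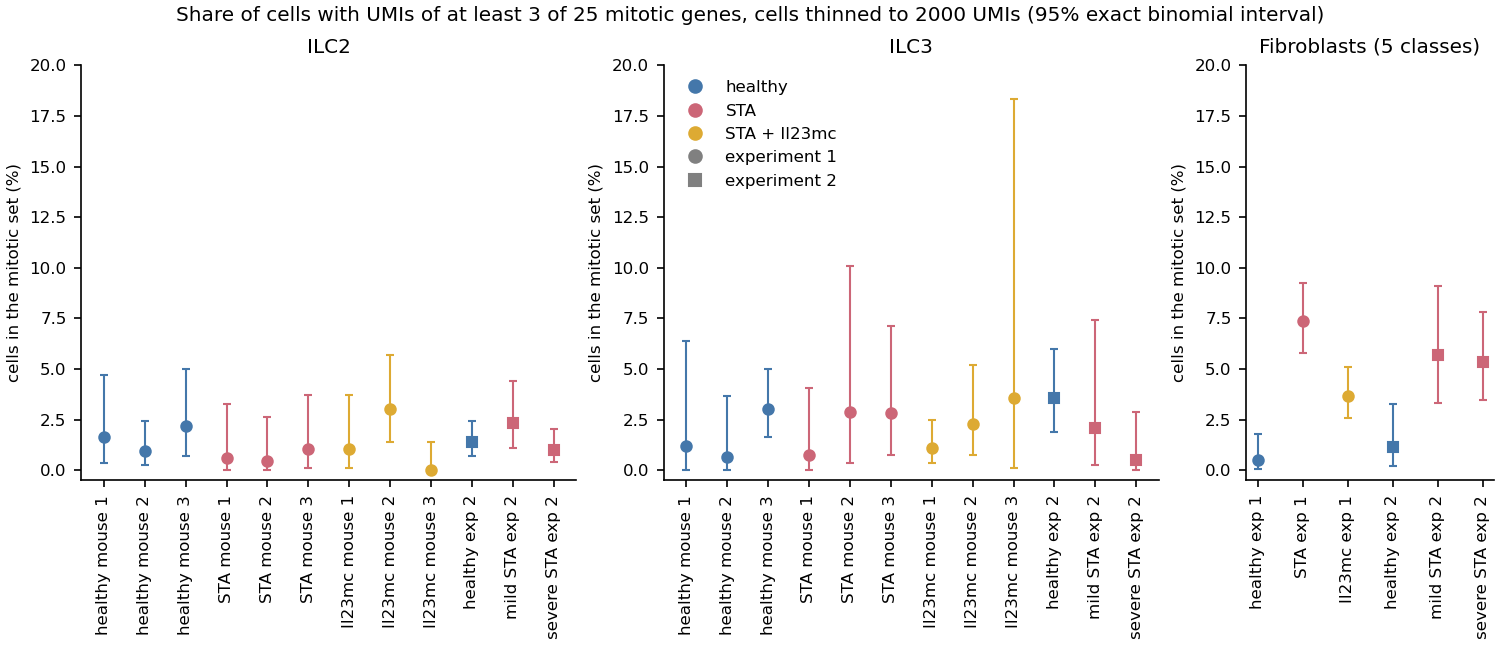
Share of mitotic cells (percent, vertical axis) for each hashtag in ILC2, ILC3 and fibroblasts, cells thinned to 2000 UMIs; points are hashtags and bars exact 95% binomial intervals. The 3 STA fibroblast hashtags lie at 5.35% to 7.38%, above the healthy ones at 0.496% and 1.13%, whereas the ILC2 hashtags lie between 0% and 3.04%.

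Gene by gene, 17 of the 43 members were higher in STA than in healthy fibroblasts and 0 were lower, at an adjusted p under 0.05 (edgeR quasi-likelihood test with an experiment term, 3 STA against 2 healthy hashtags, Benjamini-Hochberg over 13249 genes). Of all genes tested 10.7% were higher. All 43 members passed the filter on low counts. The median log2 fold change over the members was 1.38, beside 0.02 over all genes, and 30 of 43 members, against 22.2% of all genes, were higher in every STA than in every healthy hashtag (and 1 lower in this way, against 19.9%). Estimates within each experiment were above 0 for the same 41 members, and Pcna and Mcm4 were the exceptions in both. By role, 12 of 25 mitotic members, 3 of 11 replication members, 2 of 4 chromatin and tubulin members and 0 of 3 histone members were called higher.

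Among mitotic members, Cdc20, which activates the anaphase-promoting complex, had the lowest adjusted p. Its level was 5.26 and 6.45 CPM in healthy fibroblasts and 16.3, 19.5 and 17.7 CPM in STA (experiment 1, mild, severe), a log2 fold change of 1.59 (SE 0.20, adjusted p = 0.00153). Cdca3, a trigger of mitotic entry, stood at 6.72 and 8.38 CPM against 30.4, 31.4 and 22.2 CPM (log2 1.92, SE 0.24, adjusted p = 0.00166). For both genes the 2 groups were far apart beside the spread within them.

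Ccnb2, a cyclin that pairs with CDK1, rose from 4.97 and 9.99 CPM to 36.1, 31.3 and 27.7 CPM (log2 2.12, SE 0.28, adjusted p = 0.00348). Kif23, a motor of the central spindle in cytokinesis, rose from 1.75 and 2.90 CPM to 8.02, 9.68 and 7.76 CPM (log2 1.86, SE 0.33, adjusted p = 0.00621). Cenpe, a kinetochore motor, rose from 1.17 and 3.54 CPM to 15.1, 13.9 and 10.3 CPM (log2 2.52, SE 0.42, adjusted p = 0.00677). Tpx2, which activates Aurora A at the spindle, rose from 4.38 and 6.12 CPM to 19.4, 16.99 and 11.6 CPM (log2 1.66, SE 0.31, adjusted p = 0.00805). In each of these the severe hashtag was the lowest of the 3 STA hashtags and still above both healthy ones.

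The central kinase Cdk1 was at 6.72 and 4.83 CPM in healthy and 28.8, 19.0 and 9.19 CPM in STA fibroblasts (log2 1.85, SE 0.44, adjusted p = 0.0429). Birc5, the survivin subunit of the chromosomal passenger complex, was at 4.97 and 8.06 CPM against 47.0, 37.5 and 23.4 CPM (log2 2.53, SE 0.42, adjusted p = 0.0177). The other 4 mitotic members called were Ccna2, Bub1, Bub1b and Plk1, with log2 fold changes of 1.73 to 2.28.

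Some of the best known proliferation genes did not pass. Mki67, which coats mitotic chromosomes, stood at 11.7 and 16.1 CPM in healthy and 32.1, 49.9 and 25.3 CPM in STA fibroblasts (log2 1.33, SE 0.39, adjusted p = 0.0883). Ccnb1, the other mitotic B cyclin, stood at 2.34 and 0.645 CPM against 14.5, 20.05 and 6.21 CPM (log2 3.20, SE 1.00, adjusted p = 0.122). For both, no STA hashtag overlapped a healthy one, but the STA hashtags differed widely among themselves. Top2a, which untangles replicated DNA, overlapped between groups, at 9.93 and 20.3 CPM against 32.4, 42.6 and 16.0 CPM (log2 1.02, SE 0.73, adjusted p = 0.438).

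Of the replication members 3 were called. Tyms, which makes thymidylate for DNA synthesis, rose from 11.98 and 9.99 CPM to 41.9, 20.4 and 17.9 CPM (log2 1.41, SE 0.22, adjusted p = 0.00391). The other 2 called were Rrm2, a ribonucleotide reductase subunit (log2 0.92, adjusted p = 0.0269), and Mcm3, a subunit of the replicative helicase (log2 0.79, adjusted p = 0.0277). Pclaf, a PCNA partner, was at 10.2 and 14.2 CPM against 39.96, 35.5 and 18.5 CPM (log2 1.41, SE 0.46, adjusted p = 0.123).

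The helicase subunit Mcm5 was at 3.797 and 6.45 CPM against 12.3, 8.16 and 6.33 CPM (log2 0.86, adjusted p = 0.142). Pcna, the sliding clamp of DNA polymerase, was the only member whose STA hashtags all lay below the healthy ones, at 104 and 92.5 CPM against 87.7, 73.6 and 75.3 CPM (log2 -0.27, SE 0.10, adjusted p = 0.0982). That difference did not pass.

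Stmn1, a microtubule destabiliser, rose from 43.5 and 35.4 CPM to 106, 94.97 and 64.2 CPM (log2 1.23, SE 0.20, adjusted p = 0.00717). Hmgb2, a chromatin protein abundant in dividing cells, rose from 68.9 and 90.6 CPM to 132, 172 and 114 CPM (log2 0.80, SE 0.21, adjusted p = 0.0458). With a single rule for hashtags and quality in place of the authors' cells and classes, these log2 fold changes were -0.02 for Stmn1 and -0.21 for Hmgb2, and neither passed. The variant histone gene H2afz (398 and 348 against 585, 395 and 383 CPM, log2 0.35, adjusted p = 0.0645) and the alpha tubulin gene Tuba1b (log2 0.12, adjusted p = 0.45) overlapped between groups.

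Hist1h2ap, a clustered histone H2A gene, stood apart by well: 49.1, 135 and 36.2 CPM in the healthy, STA and Il23mc hashtags of experiment 1, and 1.29, 2.89 and 0.836 CPM in healthy, mild and severe fibroblasts of experiment 2. Its log2 fold change was 1.38 (adjusted p = 0.0539). Clustered H2A genes are nearly identical, reads between them can be split by the counting, and their levels are uncertain here.

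**Figure D2:**
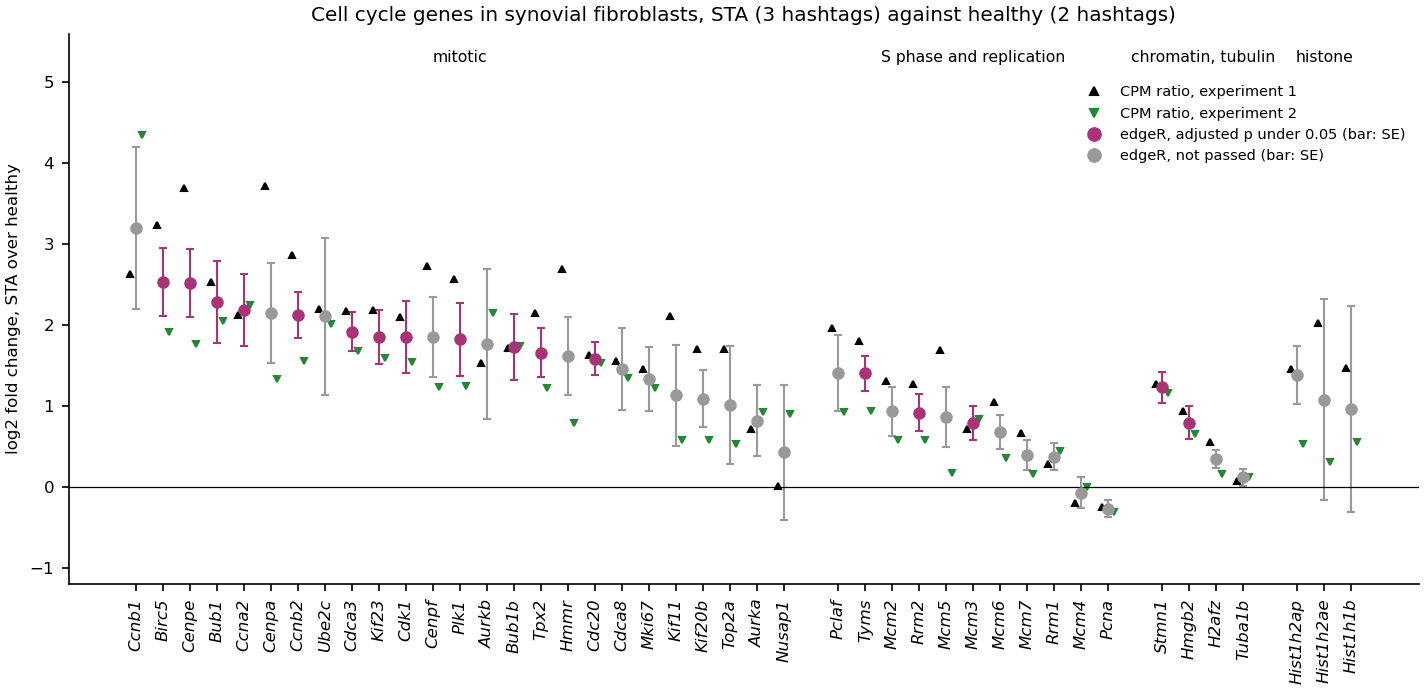
Log2 fold change of STA over healthy fibroblasts (vertical axis) for each of the 43 members, grouped by role, from the edgeR fit over 3 STA and 2 healthy hashtags. Called genes are marked apart from those that did not pass; 41 of 43 estimates lie above 0, and called members run from 0.79 (Mcm3) to 2.53 (Birc5).

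Genes that govern entry into the cycle moved in both directions in the same comparison. Of all genes tested 10.7% were called higher and 9.33% lower, and of 9 G1 cyclins and kinases 2 were higher and 2 lower. Cdk4 (log2 1.05, adjusted p = 0.00127) and Cdk6 (log2 1.17, adjusted p = 0.00224), the kinases that inactivate the pocket proteins, rose, and Ccnd2, a D cyclin that partners them, fell by 0.86 on the log2 scale (adjusted p = 0.00489).

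Of 12 CDK inhibitors and quiescence genes, 3 were higher and 3 lower, against the same shares of all genes. Cdkn1a, the p53-inducible inhibitor p21, was at 485 and 629 CPM in healthy and 112, 212 and 210 CPM in STA fibroblasts (log2 -1.80, SE 0.14, adjusted p = 0.000188). Cdkn2b and Cdkn2c, inhibitors of CDK4 and CDK6, moved the other way, by log2 2.39 (adjusted p = 0.00248) and 1.64 (adjusted p = 0.00314). Members of 2 inhibitor families thus moved in opposite directions.

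Of 13 E2F, pocket protein, DREAM and FoxM1 genes, E2f3 was higher (log2 0.76, adjusted p = 0.0395) and the pocket protein gene Rbl2 lower (log2 -0.88, adjusted p = 0.00537). Of 12 mitotic entry and checkpoint genes, the spindle checkpoint gene Mad2l1 (log2 1.02, adjusted p = 0.0278) and the phosphatase gene Cdc25c (log2 2.64, adjusted p = 0.0283) were higher, and the stress gene Gadd45b was lower (log2 -0.42, adjusted p = 0.0486).

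The make-up of the fibroblasts differed between the conditions at the same time. The class that the authors call Mmp3+ was 10 of 408 and 29 of 268 healthy fibroblasts (2.45% and 10.8%), and 69.5%, 49.1% and 40.6% of STA fibroblasts. It held 62.5% to 79.7% of the mitotic cells of the STA hashtags. Summed without the Mmp3+ class, 0 of 43 members were called (edgeR, 9 at an unadjusted p under 0.05, all higher; 1.47% of all genes were called higher), while the members' median log2 fold change was 1.44. Mitotic cells outside Mmp3+ were 1 of 393 and 3 of 238 healthy fibroblasts (0.254% and 1.26%), and 4.95%, 4.17% and 2.53% of STA fibroblasts, so the share outside Mmp3+ was higher in every STA than in every healthy hashtag. Within the Il6+ and the Pi16+ class alone, 2 of 25 and 2 of 37 members tested were called (beside 1.66% and 0.635% of all genes called higher), with members' median log2 fold changes of 1.5 and 1.08, and Rrm2 stood at a log2 of -0.16 and -0.05. The classes were drawn by the authors from all genes of these cells, members included.

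Single hashtags also set the count. Without the STA hashtag of experiment 1, 5 members were called, without the healthy hashtag of experiment 1, 6, and without the severe hashtag, 29. The members' median log2 fold change was 0.93 without the STA and 0.91 without the healthy hashtag of experiment 1. With a single rule for hashtags and quality in place of the authors' cells and classes, 4 were called (5.58% of all genes were called higher), the median was 0.26, and the mitotic share was 5.50% and 4.24% in healthy against 8.62%, 12.04% and 10.6% in STA hashtags. Lining markers (Prg4, Clic5, Hbegf and Tspan15) summed to 24886 CPM in the healthy hashtag of experiment 1 and 3534 CPM in that of experiment 2, beside 6164 to 8979 CPM in STA; their part in the result was not tested.

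With Il23mc added to STA, mitotic fibroblasts were 35 of 949 (3.69%, interval 2.58 to 5.09), between the healthy and the STA hashtags. In edgeR 0 of 43 members were called against STA, where 0.362% of all genes were (9 members at an unadjusted p under 0.05, all lower; DESeq2 also 0). Without the STA hashtag of experiment 1, 3 members reached that p, 2 of them higher, and the median log2 fold change went from -0.56 to -0.05. Of the named members, log2 fold changes ran from -1.64 (Hist1h2ap) to 0.22 (Tyms). The single Il23mc hashtag had no replicate, so the fit assumed that it varied like the other groups.

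Within the well of experiment 1, 1 hashtag against 1, 42 of 43 members had a counting interval of the log2 ratio wholly below 0, as had 51.1% of all genes with at least 50 UMIs. At a fold of 2 or more, 15 of 43 members were lower, beside 2.15% of those genes, and the median log2 ratio was -0.90 over the members and -0.24 over all genes. Kif23 was at 3.16 CPM with Il23mc and 8.02 CPM without (log2 -1.34, interval -1.83 to -0.87), and Pclaf at 15.4 and 39.96 CPM (log2 -1.38, interval -1.59 to -1.17). Tyms was the member whose interval spanned 0, at 38.4 and 41.9 CPM. These are 2 libraries, without a replicate check. Comparisons against STA and of STA against healthy share the STA hashtags.

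In experiment 2, severe fibroblasts held less of many members than mild ones in the same well, although their mitotic shares were close (5.35% and 5.71%). Of the 36 members with at least 50 UMIs, 10 were lower by a fold of 2 or more in severe, beside 0.890% of all genes, and 0 were higher, beside 0.922%. Counting intervals lay below 0 for 20 of the 36 and above 0 for 0, beside 10.4% and 12.4% of all genes. The mitotic ubiquitin carrier gene Ube2c was at 11.3 CPM in severe and 40.9 CPM in mild (log2 -1.85, interval -2.21 to -1.503). Hist1h1b, a linker histone made in S phase, was at 2.39 and 18.5 CPM (log2 -2.96, interval -3.72 to -2.26). Pcna (75.3 and 73.6 CPM) and Tuba1b (305 and 317 CPM) had intervals that spanned 0. Each side is 1 hashtag, with no replicate check.

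In ILC2 mitotic cells were few in every group, and the groups overlapped. Mitotic cells were 1.64%, 0.959% and 2.18% of ILC2 in the 3 healthy mice of experiment 1, 0.595%, 0.476% and 1.04% in the 3 STA mice, and 1.05%, 3.04% and 0% in the 3 Il23mc mice (0 of 258 allows up to 1.16%). Means were 1.59% (SD 0.613), 0.704% (SD 0.298) and 1.36% (SD 1.54), from 12, 4 and 11 cells. The intervals of single mice overlapped throughout, but they cover counting error only, and a difference between the groups was not tested. Unthinned means were 3.63%, 2.25% and 2.29%.

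In experiment 2, where the 3 groups shared a well, mitotic ILC2 were 1.38% of healthy, 2.35% of mild and 0.992% of severe cells. Healthy lay between the 2 arthritic hashtags. The healthy cells kept the authors' hashtag and class, whereas mild and severe cells had their hashtags called here and their classes transferred. In this well the hashtag call returned the authors' hashtag for 70.3% of annotated cells. Under the single rule for all cells, the order of the group means in experiment 1 changed, with 3.12% in healthy, 3.66% in STA and 3.03% in Il23mc singlets of the ILC wells. Cells that the class transfer left out of the STA ILC well held 7.07%, 24.6% and 64.3% mitotic cells in the 3 mice. Those it left out in experiment 2 held 42.9% in mild and 37.5% in severe. These cells are in none of the ILC2 or ILC3 shares.

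Of 27 members with enough counts in ILC2, 2 differed between STA and healthy mice of experiment 1 (edgeR, 3 against 3 mice, 7181 genes), beside 2.97% of all genes. H2afz, an H2A variant that is not tied to replication, rose from 677, 695 and 696 CPM to 1221, 808 and 1166 CPM (log2 0.70, SE 0.15, adjusted p = 0.0152). Kif23 fell from 57.9, 61.6 and 73.7 CPM to 32.5, 22.8 and 28.2 CPM (log2 -1.15, SE 0.21, adjusted p = 0.00312). Neither gene overlapped between the groups.

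The H2afz call was lost without STA mouse 1 or 3 or without any 1 of the healthy mice (adjusted p from 0.05665 to 0.1002), and both calls were lost with the single rule for all cells (edgeR, 0 called, 5 at an unadjusted p under 0.05, 4 of them higher; 0.0799% of all genes were called). The members' median log2 fold change also turned, from -0.98 over the 27 tested to 0.48 over 42 under the single rule, and it was -0.16 over 21 without cells holding a Cd3d, Cd3e or Cd3g UMI, where both calls held. Over all 43 members, 13 were lower and 1 higher in every STA than in every healthy mouse. Of all genes tested 14.5% were lower and 8.88% higher in this way. These shares leave out genes too low in count, which the 43 members do not, so the 2 cover unlike sets. Mitotic members, of which 15 of 25 were not tested, gave 10 of the 13. The 16 members not tested were too low in count.

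Mki67 was at 32.7, 19.2 and 93.3 CPM in healthy and 7.64, 7.07 and 10.7 CPM in STA ILC2 (log2 -2.39, SE 1.00, adjusted p = 0.332), and Top2a at 75.5, 50.7 and 106 against 25.8, 36.2 and 47.6 CPM (log2 -0.98, SE 0.46, adjusted p = 0.376). Healthy mouse 3 was the highest for both, and no STA mouse reached the lowest healthy one. Birc5 (log2 -1.91), Pclaf (-1.15), Pcna (-0.40), Mcm5 (-0.05), Tyms (0.45), Stmn1 (-0.99), Hmgb2 (-0.14), Tuba1b (-0.51) and Hist1h2ap (-1.13) did not pass either, with adjusted p from 0.336 to 0.967. Cdk1 and Ccnb1 were too low to test. Hist1h2ap levels are uncertain here as in fibroblasts.

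In the shared well of experiment 2, each side is 1 hashtag with no replicate check. As above, the healthy cells were selected by the authors and the arthritic ones by called hashtags and transferred classes. Over the 16 members with at least 50 UMIs, the median log2 ratio of mild to healthy was 0.50, beside -0.02 over all such genes. For severe to healthy it was -0.07 over 18 members, beside -0.004 over all such genes. The members' median of -0.98 in experiment 1 was thus not seen in either hashtag. For Kif23 and for H2afz, the counting interval of the ratio to healthy lay apart from 0 in 1 of the 2 arthritic hashtags. Kif23 was at 56.5 CPM in healthy, 48.3 CPM in mild and 32.2 CPM in severe ILC2, where the severe ratio to healthy lay below 0 (log2 -0.81, counting interval -1.12 to -0.50) and the mild ratio spanned 0. H2afz was at 644, 938 and 668 CPM, above healthy in mild (log2 0.54, interval 0.46 to 0.62) but not in severe (log2 0.05, interval -0.02 to 0.13). Severe against mild, 4 of 17 members with at least 50 UMIs were lower by a fold of 2 or more, beside 0.318% of all genes, and counting intervals lay below 0 for 9 of the 17 and above 0 for 0, beside 8.26% and 9.32% of all genes.

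Among other cycle regulators in ILC2 1 was called. In STA against healthy mice 0 of 6 G1 cyclins and kinases, 0 of 8 inhibitors and quiescence genes and 0 of 6 E2F and pocket protein genes tested were called. Of 6 mitotic entry genes tested, Wee1, the kinase that holds CDK1 inactive, was called: it fell from 76.7, 53.2 and 63.1 CPM to 17.2, 11.004 and 7.77 CPM (log2 -2.33, SE 0.27, adjusted p = 2.31e-05). In the shared well of experiment 2 Wee1 was at 56.9 CPM in healthy, 32.0 CPM in mild and 32.5 CPM in severe ILC2.

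With Il23mc added to STA, 0 of 27 members tested in ILC2 were called (edgeR; 5 at an unadjusted p under 0.05, all higher; DESeq2 also 0), where 1.55% of all genes were called. Named members with a test ran from a log2 of -0.58 (Hist1h2ap) to 1.61 (Birc5). Without Il23mc mouse 3, which held 0 mitotic ILC2, 3 were called, all higher. Among regulators, the antiproliferative gene Btg1 was higher (log2 0.51, adjusted p = 0.0305) and Cdkn2c lower (log2 -1.94, adjusted p = 0.0454). The comparison shares its STA mice with the one above. T cell markers summed to 2997 CPM in ILC2 of Il23mc mouse 1, beside 622 to 1258 CPM in the other 8 mice of experiment 1; without cells holding a Cd3d, Cd3e or Cd3g UMI, 0 of 21 members tested were called, 0 passed an unadjusted p under 0.05, and the members' median log2 fold change was 0.14, beside 0.34 with those cells.

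Between Il23mc and healthy ILC2 2 of 27 members were called, with H2afz at 876, 1033 and 1002 CPM (log2 0.61, adjusted p = 0.0161) and Kif23 at 34.5, 31.2 and 36.4 CPM (log2 -0.81, adjusted p = 0.0158), beside 7.27% of all genes. It shares the healthy mice with STA against healthy. Wee1 was lower (log2 -1.76, adjusted p = 0.000102), as were Rb1, the retinoblastoma pocket protein (log2 -0.83, adjusted p = 0.0159), E2f1 (log2 -1.75, adjusted p = 0.0409) and Gadd45b (log2 -0.47, adjusted p = 0.0392), and Btg1 was higher (log2 0.79, adjusted p = 0.000214). Without healthy mouse 2 or 3 or Il23mc mouse 2 neither member was called, and without healthy mouse 1, 1 was.

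In the class called ILC3, 6 of 27 members tested were lower and 0 higher in Il23mc than in healthy mice (edgeR, 3 against 3), beside 24.7% of all genes in either direction and 11.7% lower. Hist1h2ap fell from 54.8, 36.5 and 36.6 CPM to 4.4002, 3.72 and 8.43 CPM (log2 -3.12, SE 0.33, adjusted p = 9.81e-06); its level is uncertain for the reason given above, and the groups are separate wells. Stmn1 fell from 142, 165 and 250 CPM to 57.9, 78.1 and 101 CPM (log2 -1.38, SE 0.23, adjusted p = 0.000529). The other 4 were Kif23 (log2 -1.03, adjusted p = 0.00689), Hist1h2ae (log2 -1.36, adjusted p = 0.00695), Hist1h1b (log2 -1.71, adjusted p = 0.0223) and H2afz (log2 -0.46, adjusted p = 0.0365). All 3 histone members, replication-dependent genes that are mostly read in S phase, were among the 6. Of 9 replication members tested, 0 were called. For all 3 histone genes a difference between the conditions cannot be told apart from one between wells.

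DESeq2 called 2 members, and without Il23mc mouse 1, 2, or without healthy mouse 3, 3. Stmn1 and Hist1h2ap were called under every alternative run. Il23mc mouse 3 gave 28 ILC3 only, and its Mki67 stood at 253 CPM beside 24.9 and 32.0 CPM in the other 2 mice and 29.7, 31.5 and 42.97 CPM in healthy ones (log2 0.19, SE 0.86, adjusted p = 0.915). T cell markers summed to 5178, 4950 and 1677 CPM in Il23mc and to 926 to 1086 CPM in healthy ILC3, and the ILC3 markers also differed, as given above; their part was not tested.

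Named members that did not pass in ILC3 had log2 fold changes of -0.30 (Top2a), -0.34 (Cdk1), 0.57 (Birc5), -0.78 (Pclaf), -0.26 (Pcna), -0.86 (Mcm5), 0.23 (Hmgb2) and -0.04 (Tuba1b). Among regulators in ILC3, 4 of 8 inhibitors and quiescence genes tested were higher, beside 13.0% of all genes, led by Cdkn2d, an INK4 inhibitor (39.2 CPM, SD 6.84, in healthy and 97.0 CPM, SD 5.95, in Il23mc, n = 3 each, log2 1.49, adjusted p = 7.76e-05), and Btg1 (log2 0.68, adjusted p = 0.00195), while Cdkn2c was lower (log2 -1.67, adjusted p = 0.00246). Of G1 genes Cdk6 was higher (log2 0.82, adjusted p = 0.00455) and Ccnd2 lower (log2 -1.64, adjusted p = 0.024). Wee1 (log2 -1.90, adjusted p = 0.000471) and Rb1 (log2 -1.14, adjusted p = 0.0031) were lower, and Mdm2, which restrains p53, was higher (log2 1.29, adjusted p = 0.00202).

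Mitotic ILC3 were 1.18%, 0.667% and 3.02% of cells in healthy mice, 1.08%, 2.26% and 3.57% in Il23mc mice (the last 1 of 28 cells), and 0.741%, 2.90% and 2.84% in STA mice. In experiment 2 they were 3.56% in healthy, 2.11% in mild and 0.521% in severe. The ranges of the groups overlapped. In STA mouse 2, transferred ILC3 carried 2611 CPM of neutrophil and 3776 CPM of dendritic cell markers, beside at most 49.5 and 710 CPM in the other mice of experiment 1.

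Across the authors' classes, pooled over conditions, mitotic cells were 10.1% of the Lining class (16 of 158, interval 5.90 to 15.9; 11 of the 16 came from the STA hashtag of experiment 1). They were also frequent in the Osteoblasts (9 of 127, 7.09%, 3.29 to 13.0) and the Mmp3+ class (116 of 1649, 7.03%, 5.85 to 8.38). Il6+ held 1.18%, Pi16+ 1.44%, and Cd200+ 0 of 108. Among ILCs, ILC3-1 held 3.48% (26 of 747) and the other classes 0.872% (Precursors) to 1.78% (ILC2-1). Replication cells were 4.42% of ILC3-1, 2.63% of ILC3-2 and 0.581% to 1.34% of the other ILC classes. Since the classes were made from the same genes, these shares are a description.

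**Figure D3:**
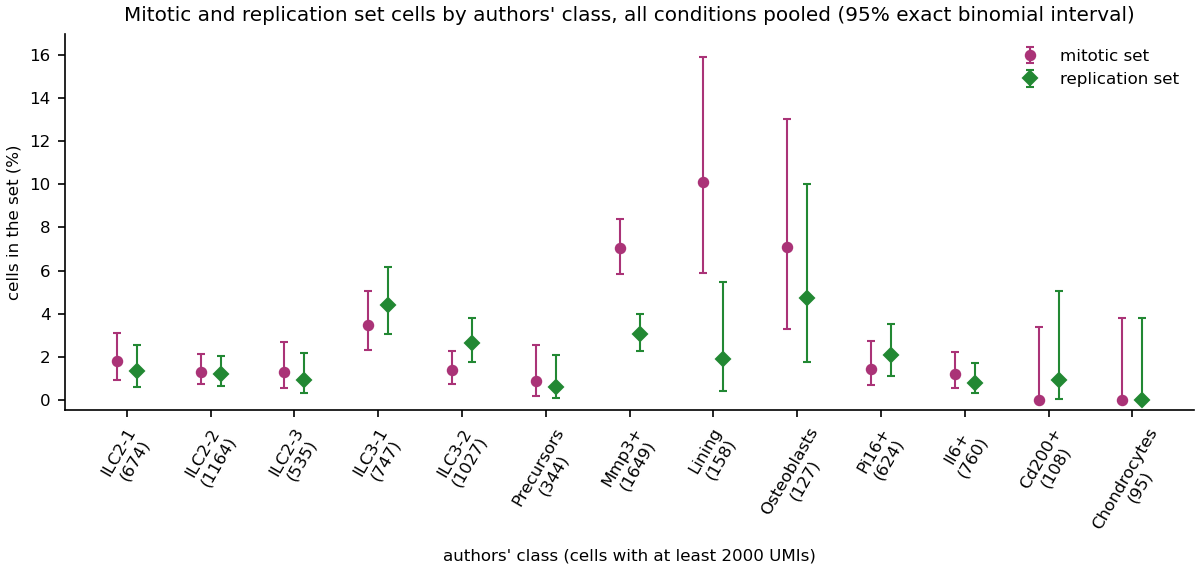
Mitotic and replication cells (percent, vertical axis) in each of the authors' classes, conditions pooled, cells thinned to 2000 UMIs, with exact 95% binomial intervals. Lining, Osteoblasts and Mmp3+ lie at 7.03% to 10.1% for the mitotic set, and Cd200+ and Chondrocytes at 0%.

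The Lining class holds cells of the synovial surface that make lubricin. In experiment 1, with 1 hashtag per condition, its mitotic cells were 0 of 49 healthy cells (which allows up to 6.12%) and 11 of 54 STA cells (20.4%, interval 10.6 to 33.5). They were 0 of 17 Il23mc cells (up to 17.6%, a limit within the STA interval). Unthinned, the Il23mc cells held 3 of 17. In experiment 2 the class held 1 mitotic cell of 6 healthy, 2 of 13 mild and 2 of 19 severe cells. Mitotic Lining cells carried 55539 CPM of the 4 lining markers and 4.97 CPM of the 4 leukocyte markers, with Ptprc at 0. Within Mmp3+, the share was 8.44%, 7.35% and 9.47% in STA and 5.05% in Il23mc hashtags, beside 1 of 10 and 0 of 27 healthy cells, too few to compare.

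How far a member's UMIs were confined to mitotic cells differed between cell types. The cell types also differed in depth, with a median of 12284 UMIs in fibroblasts and 4806 in ILC2 of neither set. The part of depth in these differences was not tested. For these shares, a cell was counted as mitotic from at least 3 mitotic members other than the gene itself, without thinning, so that no gene defined its own set. In fibroblasts such cells were 10.5% of cells and 17.3% of UMIs at most, and they held 95.6% of the Mki67, 90.9% of the Top2a, 95.02% of the Ccnb2 and 97.6% of the Plk1 UMIs. Of the mitotic members, the lowest share in fibroblasts was 77.7% (Kif20b). In ILC2 they were 3.32% of cells and 6.19% of UMIs at most, and held 74.5% of the Mki67, 54.3% of the Top2a and 92.9% of the Ccnb2 UMIs.

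Of the 25 mitotic members Kif23 differed most between fibroblasts and ILC2 in this respect. Mitotic cells held 89.5% of its UMIs in fibroblasts, 21.7% in ILC3 and 12.4% in ILC2, where 15.7% of non-mitotic cells also held a Kif23 UMI, beside 1.04% of non-mitotic fibroblasts at a higher depth. In the same order, Cenpa, the centromeric histone H3, followed with 92.4%, 23.7% and 23.3%, and then Ccnb1 with 94.5%, 66.7% and 38.7%. So the Kif23 level in ILC2 sums, the member that fell there, came for the larger part from cells outside the mitotic set.

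In fibroblasts the replication members other than Pclaf (97.4%) lay below the lowest mitotic member. In ILC2 the roles overlapped: Pclaf (78.8%) and Rrm2 (63.2%) lay above Kif23, Cenpa, Kif20b and Ccnb1. Mitotic cells held 34.1% of Pcna UMIs in fibroblasts and 15.9% in ILC2, 76.1% and 37.6% of Mcm5, 55.9% and 50.7% of Tyms, 81.5% and 71.8% of Stmn1, and 51.2% and 14.0% of H2afz. H2afz was found in 99.3% of mitotic and in 76.2% of other ILC2. Mitotic cells were deeper, with a median of 25430 UMIs beside 12284 in fibroblasts with neither set and 9506 beside 4806 in ILC2. Unthinned, 78.8% of mitotic fibroblasts were replication cells too, and 54.5% of mitotic ILC2.

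**Figure D4:**
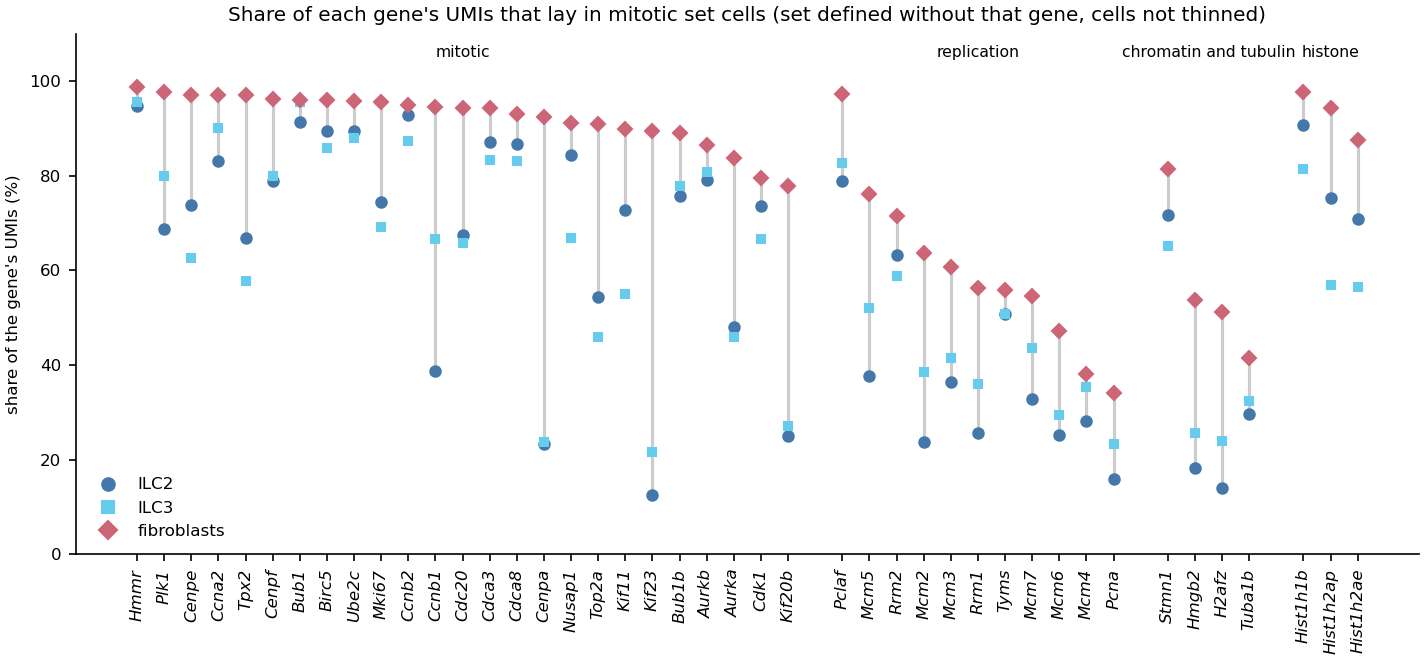
Share of each gene's UMIs (percent, vertical axis) that lay in mitotic cells defined without that gene, for each member in fibroblasts, ILC2 and ILC3. All 25 mitotic members lie at 77.7% or more in fibroblasts, while Kif23 lies at 12.4% in ILC2.

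Mitotic cells were a smaller share of the cells in the authors' table than of those it leaves out. Cells outside the table were hashtag singlets that met the limits on UMIs, genes and mitochondrial share used here. Cells in the table were taken as the authors selected them, without these limits. In annotated wells and hashtags, mitotic cells were 1.77% of healthy ILCs of experiment 1 in the table and 19.2% (35 of 182) of those singlets outside it. The values were 1.48% and 7.72% (49 of 635) in Il23mc ILCs, 1.92% and 23.4% (11 of 47) in healthy ILCs of experiment 2, 4.52% and 9.90% (70 of 707) in fibroblasts of experiment 1, and 4.51% and 19.8% (92 of 465) in those of experiment 2. Intervals in and outside the table did not overlap in any of the 5 wells. The shares by class above therefore describe the cells that the authors kept.

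Mitotic cells outside the table carried markers of several cell types. In ILC wells (145 cells, median 12981 UMIs) T cell markers summed to 2119 CPM, neutrophil markers to 2136 CPM and fibroblast markers to 1961 CPM, beside 4999.7, 2068 and 2833 CPM in the other left-out cells. In fibroblast wells (260 cells, median 21852 UMIs) they carried 8876 CPM of fibroblast, 1256 CPM of neutrophil, 485 CPM of B or plasma cell and 443 CPM of erythroid markers, the last beside 12.6 CPM in other left-out cells. No doublet caller was run, and doublets within a hashtag remain in these counts.

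**Figure D5:**
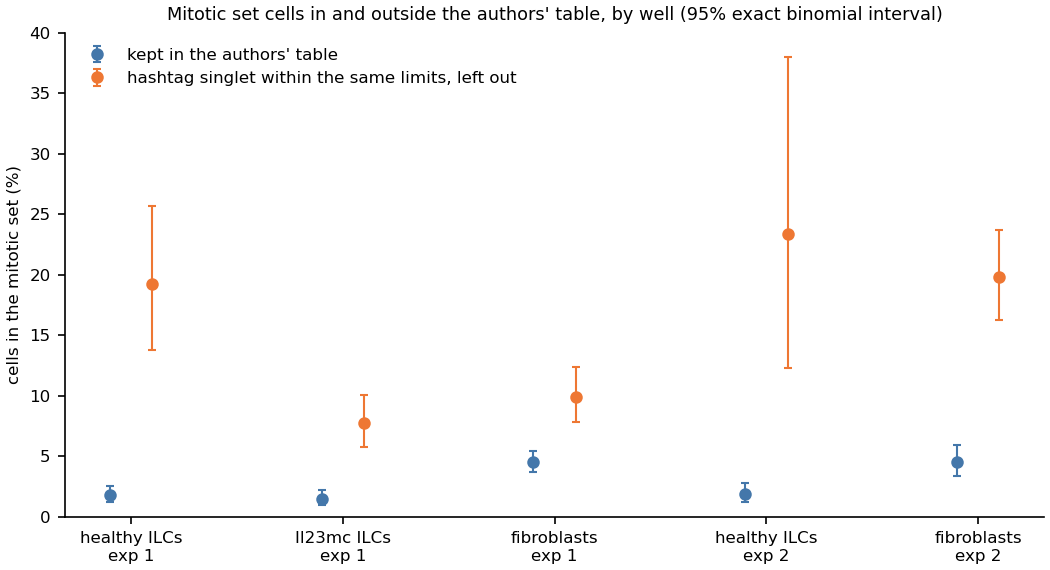
Share of mitotic cells (percent, vertical axis) among cells in the authors' table and among hashtag singlets outside it, for the 5 annotated wells, with exact 95% binomial intervals. The limits on UMIs, genes and mitochondrial share were applied to the cells outside the table only. Shares in the table lie at 1.48% to 4.52% and those outside at 7.72% to 23.4%.

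The table also gives the authors' own S and G2M scores per cell. Of unthinned mitotic cells, 57.0% to 75.7% had a G2M score above the 95th percentile of the other cells of their well. The scores were on another scale in the fibroblast well of experiment 1, where G2M ran from -1.85 to 9.69, beside -0.157 to 1.499 over the other 4 wells. They were not compared between wells.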

How the data were processed

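Raw counts (UMIs per gene, hashtag and barcode) were deposited by the authors. The build was mm10; the Cell Ranger version was 6.1.2 per the file headers but 6.0.6 in the submitters' processing notes. A deposited table of the authors gave each cell's class, S and G2M score (tool not given in the sources used here), and mitochondrial share of UMIs as a fraction, and 5 of its other columns were not used. The members and all lists were chosen with earlier results of these data known.

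Annotated cells kept the authors' class and hashtag. For the other ILCs hashtags were called with Seurat 5.3.0 (HTODemux, quantile 0.99) and hashtag doublets removed. Doublets within a hashtag were not called. On annotated cells this call returned the authors' hashtag for 98.35% of healthy and 98.65% of Il23mc ILCs of experiment 1. It did so for 70.3% in the ILC well of experiment 2, and for 82.02% and 92.39% in the fibroblast wells of experiments 1 and 2. Cells needed at least 2000 UMIs (ILCs) or 1500 (fibroblasts), 700 genes and at most 10% mitochondrial UMIs, and a cell took the commonest class of its 15 nearest annotated cells, in a space of 30 components made from 2000 variable genes (scikit-learn 1.9.0). UMIs were summed per hashtag and class and tested with edgeR 4.0.16 (quasi-likelihood, TMM, filter on low counts, adjusted p under 0.05) in 6 comparisons, with DESeq2 1.42.0 as an alternative. The ILC2 fit took the 9 mice of experiment 1 and the fibroblast fit all 6 hashtags with an experiment term. On simulated data 44% of 2-fold and 90% of 4-fold changes were recovered in ILC2 (7181 genes, 200 changed, 7 false calls), and 61% and 83% in fibroblasts (13249 genes, 200 changed, 17 false calls). Ratios of 1 hashtag to 1 carry exact 95% intervals of the counts. Where a share was 0, the limit given is 3 cells of the total. Other alternatives were thinning to 3000 or 5000 UMIs, at least 2 or 5 members, other scaling, no filter, leaving out each hashtag, ILC2 without cells holding a Cd3d, Cd3e or Cd3g UMI, and a single rule for all singlets without classes.

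Named in each comparison were at most 8 called members by adjusted p, 14 fixed members whether or not they passed, and up to 3 called genes of each regulator list. Members named beyond that, to complete a count or as examples of a 1-to-1 ratio or of a share of UMIs, were chosen after their values were seen.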

Additional observations from a re-analysis of the deposited data

Results flagged for a closer look

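Mki67, Cenpe and Kif23 lay in opposite directions in the 2 cell types. Every STA mouse lay below every healthy mouse in ILC2, and every STA hashtag above every healthy hashtag in fibroblasts. Of all genes tested, 14.5% were lower in this way in ILC2 and 22.2% higher in fibroblasts. So were 13 and 30 of the 43 members. In ILC2, 16 of the 43 were not tested, so the 13 and the 14.5% cover unlike sets of genes. Among the 25 mitotic members, 10 were lower in this way in ILC2 and 21 higher in fibroblasts, so the pattern was not limited to these 3 genes. The share of all genes that did both was not counted. The log2 fold changes were -2.39 and 1.33 for Mki67, -2.96 and 2.52 for Cenpe, and -1.15 and 1.86 for Kif23. Of these, Kif23 passed the test in both cell types, Cenpe in fibroblasts only and Mki67 in neither (edgeR), and the difference between the cell types was not tested. The ILC2 groups were separate wells, and the members' median log2 fold change there turned from -0.98 to 0.48 under the single rule.

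Cells that no comparison used also held mitotic cells. The groups given here are those whose exact 95% interval lay wholly above that of annotated cells of the same well. Hashtag doublets held 6.06% in the Il23mc ILC well, 15.8% in the fibroblast well of experiment 1 and 10.9% in that of experiment 2. Cells under the limits on UMIs, genes or mitochondrial share, where at least 2000 UMIs were left for thinning, held 10.2% in the Il23mc ILC well, 7.96% in the ILC well of experiment 2 and 14.7% in the fibroblast well of experiment 2. In the other groups of doublets, cells without a hashtag and cells under the limits the intervals overlapped, and the share was below that of annotated cells among cells under the limits in the healthy ILC well (1.67% beside 1.77%) and cells without a hashtag in the fibroblast well of experiment 2 (4.49% beside 4.51%).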

How the results depend on the processing

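The number of members called moved by more than 1.5 times as follows. For STA against healthy fibroblasts (17 called) it was 4 with a single rule for all singlets, 2 in Il6+ and 2 in Pi16+ cells alone, 0 without Mmp3+ cells, 31 without a filter on low counts, and 5 to 29 with 1 hashtag left out. For Il23mc against STA fibroblasts (0) it was 3 without the filter and 0 to 2 with 1 hashtag left out. For ILC2 it was, in STA against healthy (2), 0 with the single rule, 10 without the filter and 1 to 2 with 1 mouse left out; in Il23mc against STA (0), 1, 5 and 0 to 3; and in Il23mc against healthy (2), 1 with the single rule and 0 to 3 with 1 mouse left out. For ILC3 (6) it was 2 with DESeq2 and 2 to 9 with 1 mouse left out. The mean mitotic share of healthy ILC2 was 4.31% with at least 2 members, 3.63% unthinned and 2.62% at 3000 UMIs. In STA ILC2 it was 2.22% with at least 2 and 0.174% with at least 5 members, and 2.25% unthinned. In STA fibroblasts it was 4.06% with at least 5 members, 13.8% unthinned, 7.38% at 3000 and 8.75% at 5000 UMIs, and 3.88% without Mmp3+. The single rule takes all singlets of a well whatever their class, so its shares and fold changes are not of ILC2 or fibroblasts alone. In the ILC wells of experiment 1 its shares were 3.12% in healthy, 3.66% in STA and 3.03% in Il23mc singlets. Among STA singlets of the fibroblast wells its share was 10.4%. Unthinned, Mmp3+ cells held 17.1% mitotic and 33.9% replication cells. Called fold changes reversed for Rrm2 in Il6+ (log2 -0.16) and Pi16+ cells (-0.051), and under the single rule for Stmn1 (-0.024) and Hmgb2 (-0.21). The cause was not tested. Upper quartile scaling moved the median of all genes in ILC3 to -0.10.

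Same-numbered mice did not deviate together (correlations from -0.13 to 0.14), so the numbers were not taken as pairs. With the replicate block, 2, 0 and 2 members were called in the ILC2 comparisons and 2 in ILC3.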
